A study of Saccharomyces cerevisiae Vin13 with 18 samples.

Results

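The genes described here are 8 yeast genes of ammonium uptake and of glutamate and glutamine metabolism. They are the ammonium permease genes MEP1, MEP2 and MEP3 and the glutamate dehydrogenase genes GDH1, GDH2 and GDH3. The others are the glutamine synthetase gene GLN1 and the glutamate synthase gene GLT1. All 8 were taken by symbol from the array's annotation. Each had 1 probe set, and all 8 were found among the 5449 S. cerevisiae genes measured.

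Ammonium is the main inorganic nitrogen source of grape must. It crosses the plasma membrane through the Mep permeases. The NADP-dependent dehydrogenases Gdh1 and Gdh3 then join it to 2-oxoglutarate, an intermediate of the tricarboxylic acid cycle, to make glutamate. Gln1 adds a further ammonium to glutamate to make glutamine, and Glt1 turns glutamine and 2-oxoglutarate back into glutamate. Gdh2, which uses NAD, runs the other way and frees ammonium from glutamate when glutamate is the nitrogen source. Many genes of nitrogen use are subject to nitrogen catabolite repression: the GATA factors Gln3 and Gat1 activate them when good nitrogen sources run short, and Dal80 and Gzf3 repress them.

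The commercial wine strain VIN13 of Saccharomyces cerevisiae was grown in Chardonnay must at 20 °C, inoculated to an OD600 of 0.1, in commercial tanks of 300 L and in microaerobic laboratory vials of 80 ml. All groups share strain, must and temperature. Cells were taken on day 2 in exponential growth, on day 5 early in stationary phase and on day 10 late in it. There were 3 biological replicates per scale and day, or 6 groups of 3 Affymetrix arrays. Vessels differ in more than volume, and scale stands here for all such differences together. The labels do not say whether a replicate number marks the same vessel on the 3 days.

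Values are log2 of the deposited probe set intensities, so that a difference of 1 is a doubling. They compare a gene with itself between groups and not with other genes. Each group mean is given with its SD over 3 arrays. Since whole cultures were extracted, fewer cells using a gene and less RNA per cell cannot be told apart. Between 5357 and 5387 of the 5449 genes lay above the background level of 4.40, the 95th percentile of the probe sets for the fission yeast S. pombe on the same array, and all 8 genes lay above it on every array. The lowest correlation between arrays of a group was 0.974, for day 10 tanks, where replicate 2 stood apart. Control probe sets that set the 3′ against the 5′ part of 8 transcripts, a sign of RNA or cDNA length, had a mean log2 difference of 0.83 ± 0.06, 1.15 ± 0.09 and 1.36 ± 0.09 (SD, n = 3) in tanks on days 2, 5 and 10. In vials they had 1.00 ± 0.03, 1.46 ± 0.07 and 1.78 ± 0.07. This mean moved with both scale and day, but single controls differed in direction. From day 2 to day 10 the WBP1 control rose from 0.84 to 2.37 in tanks and from 1.39 to 3.50 in vials. The SPT15 control fell from 1.73 to 1.43 in tanks and from 1.88 to 1.33 in vials. The part of these controls in the results below was not tested.

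On day 2 the tanks had higher signal than the vials for 5 of the 8 genes, MEP1, MEP3, GDH1, GDH3 and GDH2, and lower signal for GLN1, while MEP2 and GLT1 did not pass the test (limma over all genes, Benjamini-Hochberg adjusted p under 0.05). Of all 5449 genes 77.3% were called in that comparison, 38.2% higher and 39.1% lower, so 6 called genes of 8 is close to the background. On day 5 MEP1, MEP3 and GDH2 were higher in tanks and MEP2 lower, 4 of 8 against 61.9% of all genes. On day 10 MEP3, GDH2 and GLN1 were higher in tanks, 3 of 8 against 58.7% of all genes. The median log2 difference of the 8 genes was 0.56, 0.11 and 0.24 on days 2, 5 and 10, and that of all genes was -0.01, 0.02 and 0.03. Tank and vial arrays did not overlap for 6, 5 and 4 of the 8 genes on these days, against 82.2%, 66.2% and 61.6% of all genes.

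**Figure D1:**
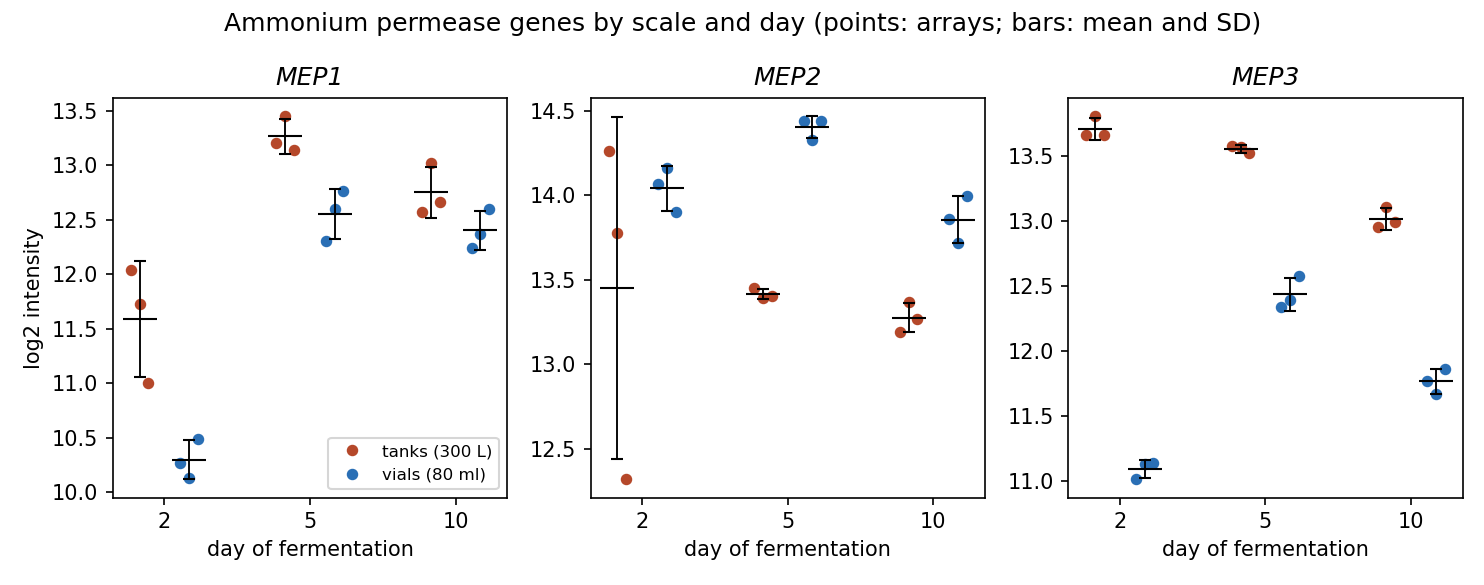
Log2 intensity (y axis) of MEP1, MEP2 and MEP3 on days 2, 5 and 10 (x axis), with a point per array for tanks (left) and vials (right) and a bar with whiskers for the mean and SD of 3 arrays. MEP3 was higher in every tank array than in every vial array of any day, and the day 2 tank arrays of MEP2 spread from 12.32 to 14.26.

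MEP3, the permease of lowest affinity for ammonium among the Mep proteins, separated the scales on every day. Its log2 signal was 13.66, 13.81 and 13.66 in the day 2 tanks, against 11.01, 11.13 and 11.14 in the day 2 vials. The tank value was 6.13-fold higher (log2 difference 2.62, SE 0.09, adjusted p = 9.69e-13), and only 2.81% of all genes had a larger difference in either direction. In the day 5 tanks MEP3 had 13.58, 13.57 and 13.52, against 12.34, 12.39 and 12.58 in the day 5 vials (log2 difference 1.12, SE 0.09, adjusted p = 2.41e-08). The day 10 tanks had 12.95, 13.11 and 12.99, against 11.77, 11.67 and 11.86 in the day 10 vials (log2 difference 1.25, SE 0.09, adjusted p = 5.79e-09). The lowest tank array of any day, at 12.95, thus lay above the highest vial array of any day, at 12.58. In order of level the groups ran day 2, day 5 and day 10 tanks and then day 5, day 10 and day 2 vials, and no neighbours in that order overlapped.

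MEP1, a second permease gene and a close relative of MEP3, was lowest on day 2 at both scales. It had 12.04, 11.73 and 11.00 in the day 2 tanks, against 10.27, 10.13 and 10.49 in the day 2 vials, with no overlap (log2 difference 1.29, SE 0.21, adjusted p = 2.56e-05). The difference was 0.71 on day 5 (SE 0.21, adjusted p = 0.00709), where the tanks had 13.20, 13.45 and 13.14 and the vials 12.30, 12.59 and 12.76. On day 10 tanks had 12.57, 13.02 and 12.66 and vials 12.24, 12.37 and 12.59, which overlap, and the difference of 0.35 was not called (95% interval -0.09 to 0.79, adjusted p = 0.16). Day 10 tanks, day 5 vials and day 10 vials formed a run of overlapping neighbours in the middle of the order, below the day 5 tanks and above both day 2 groups. Both MEP1 and MEP3 probe sets carry the plain suffix that Affymetrix gives to probes of a single transcript, and whether the probes of either also bind the other was not tested.

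MEP2 encodes the high-affinity permease, which also acts as an ammonium sensor for filamentous growth. It ran opposite to MEP3 in the stationary phase samples. On day 5 it had 13.45, 13.39 and 13.40 in tanks, against 14.44, 14.33 and 14.44 in vials (log2 difference -0.99, SE 0.30, adjusted p = 0.00956). On day 10 the tank arrays had 13.19, 13.37 and 13.27, all below the vial arrays at 13.86, 13.71 and 13.99, but the difference of -0.58 was not called (95% interval -1.22 to 0.06, adjusted p = 0.11). On day 2 the tanks had 14.26, 13.77 and 12.32 and enclosed the vials at 14.07, 14.16 and 13.90, and the difference of -0.59 was not called (adjusted p = 0.0851).

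The day 2 tank arrays enter the pooled error of MEP2 in every comparison. Without day 2 tank replicate 3 the day 2 difference was -0.02 (adjusted p = 0.885), and the day 10 difference was called (adjusted p = 0.000554). Without day 2 tank replicate 1 the MEP2 day 2 difference was -0.99 and called (adjusted p = 0.00276), and the day 10 difference was called as well (adjusted p = 0.0437). With only the 2 groups compared in the fit, the day 10 difference of MEP2 was also called (adjusted p = 0.00509).

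**Figure D2:**
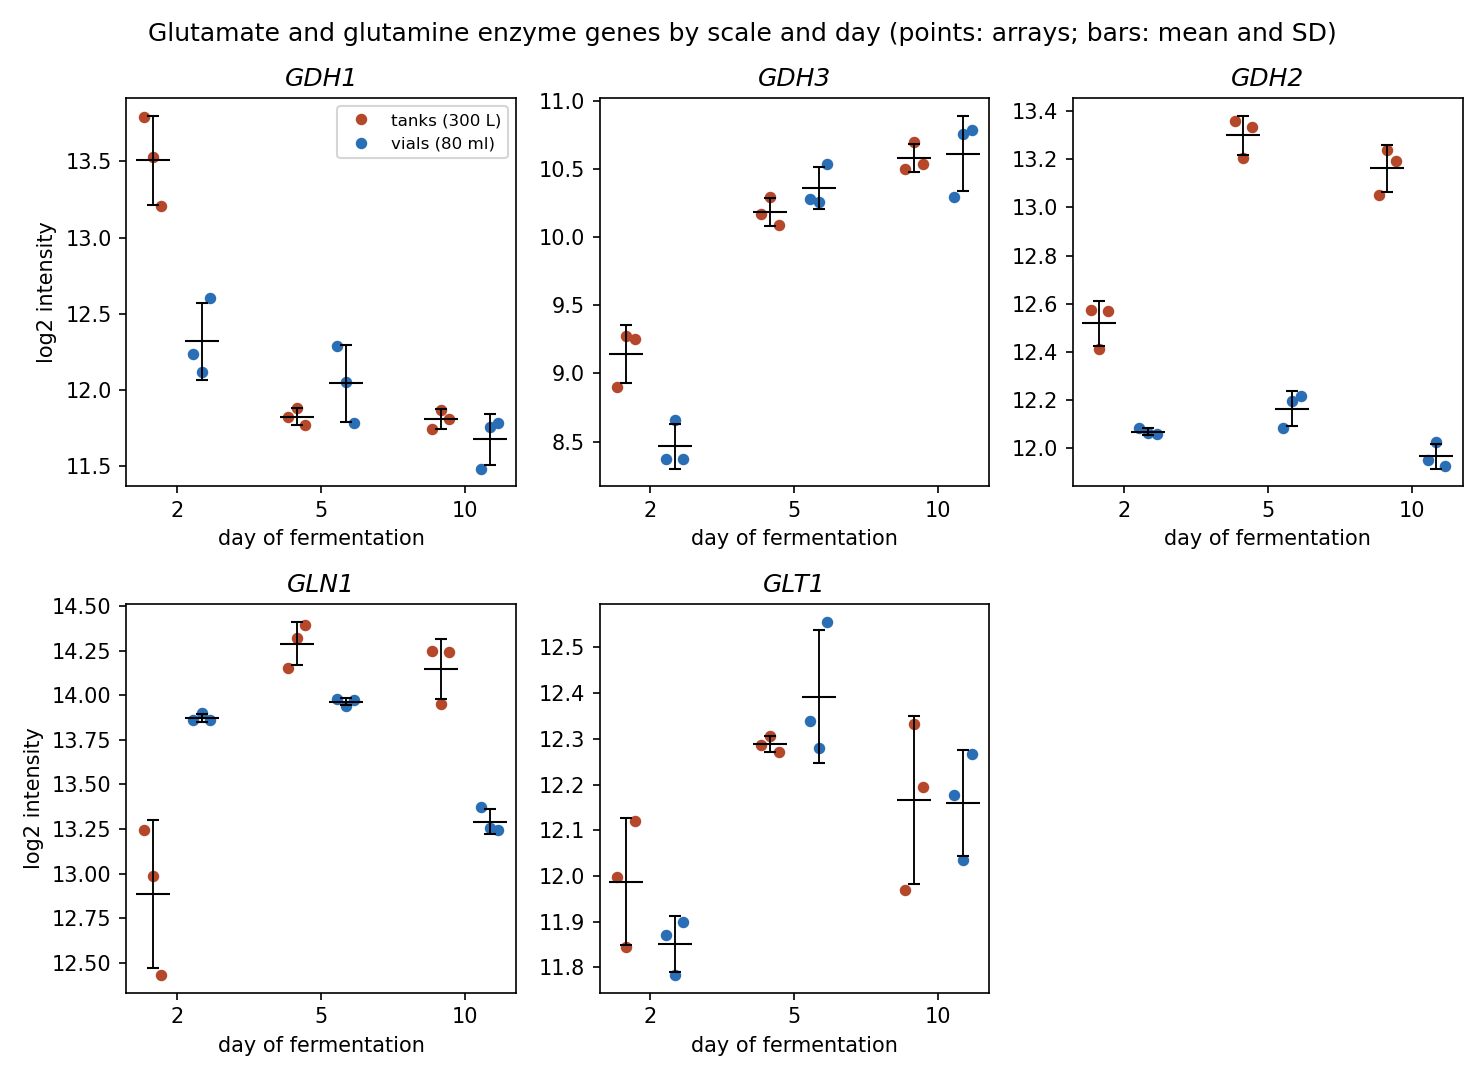
Log2 intensity (y axis) of GDH1, GDH3, GDH2, GLN1 and GLT1 on days 2, 5 and 10 (x axis), with a point per array for tanks (left) and vials (right) and a bar with whiskers for the mean and SD of 3 arrays. GDH2 was higher in all tank arrays than in all vial arrays, and GLN1 was lower in tanks on day 2 and higher on day 10.

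The NADP-dependent dehydrogenase genes were called higher in tanks on day 2 and were not called between the scales on days 5 and 10. GDH1, the main enzyme of glutamate synthesis from ammonium during growth on glucose, had 13.79, 13.53 and 13.21 in the day 2 tanks, against 12.24, 12.12 and 12.60 in the day 2 vials. No arrays overlapped (log2 difference 1.19, SE 0.15, adjusted p = 2.66e-06). Its differences on days 5 and 10 were -0.22 (95% interval -0.55 to 0.11) and 0.13 (95% interval -0.19 to 0.46). The day 2 tanks stood alone at the top of the order, and the other 5 groups, with means between 11.68 and 12.32, each overlapped their neighbours.

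GDH3, the paralog of GDH1 that is known to be expressed on ethanol and in stationary phase, had 8.90, 9.27 and 9.25 in the day 2 tanks and 8.37, 8.66 and 8.37 in the day 2 vials. The tank arrays were all higher (log2 difference 0.68, SE 0.14, adjusted p = 0.000318). On days 5 and 10 the differences were -0.18 (95% interval -0.47 to 0.12) and -0.03 (95% interval -0.33 to 0.26), and neither was called. In contrast to GDH1, GDH3 had both day 2 groups at the bottom of its order. The 4 groups above them had means between 10.18 and 10.61, and neighbours among these overlapped. Not all 4 overlapped, since the day 5 tanks, at most 10.29, lay below the day 10 tanks, at least 10.50. The test of whether the scale difference itself differed between days is given with the time course below.

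GDH2, the ammonium-releasing dehydrogenase, was higher in tanks on all 3 days. It had 12.57, 12.41 and 12.57 in the day 2 tanks, against 12.08, 12.06 and 12.06 in the day 2 vials (log2 difference 0.45, SE 0.08, adjusted p = 7.64e-05). On day 5 the tanks had 13.36, 13.21 and 13.34, against 12.08, 12.19 and 12.21 in vials (log2 difference 1.14, SE 0.08, adjusted p = 1.00e-08). On day 10 the tanks had 13.05, 13.24 and 13.19, against 11.95, 12.02 and 11.92 in vials (log2 difference 1.20, SE 0.08, adjusted p = 4.54e-09). All tank arrays lay above all vial arrays, and the 3 vial groups stayed within means of 11.97 and 12.16.

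GLN1 changed the side on which it was higher. On day 2 it had 13.24, 12.99 and 12.43 in tanks, against 13.86, 13.90 and 13.86 in vials, and was lower in tanks by 0.98 on the log2 scale (log2 difference -0.98, SE 0.15, adjusted p = 1.25e-05). Without day 2 tank replicate 3 it was still lower (log2 difference -0.76, adjusted p = 1.52e-05). On day 10 it had 14.25, 13.95 and 14.24 in tanks, against 13.37, 13.25 and 13.25 in vials (log2 difference 0.86, SE 0.15, adjusted p = 0.000126). Day 5 tanks had 14.15, 14.32 and 14.39 and day 5 vials 13.98, 13.94 and 13.97. Those day 5 groups did not overlap, but the difference of 0.33 was not called (95% interval 0.01 to 0.64, adjusted p = 0.0659). It was called with only the groups compared in the fit (adjusted p = 0.0233) and without day 2 tank replicate 3 (adjusted p = 0.00949) or 1 (adjusted p = 0.0311). With a repeated quantile normalization on the genes of S. cerevisiae the GLN1 day 5 difference was 0.19 and not called (adjusted p = 0.267).

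GLT1 differed least. Its group means lay between 11.85 and 12.39, a span of 0.54 log2 units against a median span of 1.40 over all genes, and 94.2% of genes had a larger span. The tank and vial arrays overlapped on every day. The differences were 0.14 on day 2 (95% interval -0.09 to 0.36), -0.10 on day 5 (95% interval -0.33 to 0.12) and 0.01 on day 10 (95% interval -0.22 to 0.23). These intervals hold for the deposited scaling and for each day alone. Under other scalings, weights and fits the GLT1 day 2 difference ran from 0.09 to 0.20 and was not called. By the same measure MEP1 spanned 2.96, MEP3 2.62, GDH3 2.15, GDH1 1.83, GLN1 1.40, GDH2 1.33 and MEP2 1.13 log2 units.

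**Figure D3:**
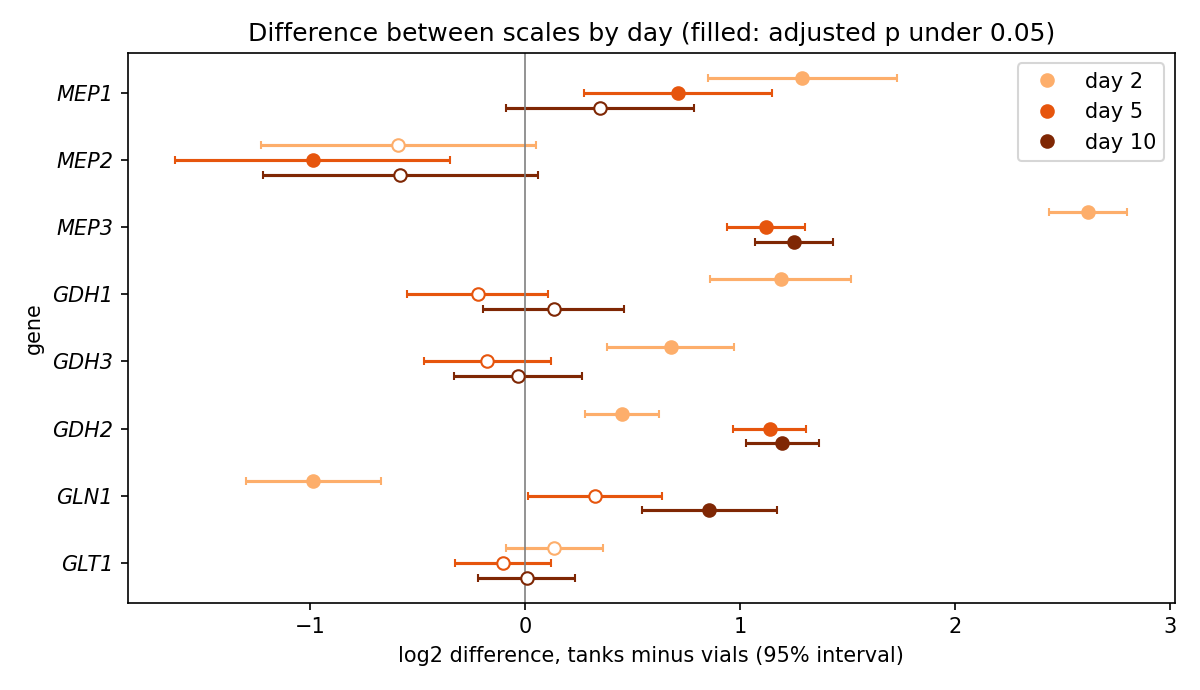
Log2 difference of tanks minus vials (x axis) for each gene (y axis) on days 2, 5 and 10, with the 95% interval from limma. Filled points have an adjusted p under 0.05. MEP3 and GDH2 lie right of 0 on all days, GLN1 lies left of it on day 2 and right of it on day 10, and GLT1 stays near 0.

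With time, both scales shared the rise of MEP1 and GDH3 between day 2 and day 5, in exponential growth and early stationary phase. In vials MEP1 was higher on day 5 than on day 2 by 2.25 (SE 0.21, adjusted p = 7.32e-08) and GDH3 by 1.89 (SE 0.14, adjusted p = 6.17e-09). In tanks MEP1 was higher on day 5 by 1.68 (SE 0.21, adjusted p = 1.56e-06) and GDH3 by 1.04 (SE 0.14, adjusted p = 4.02e-06). The tank and vial changes share no arrays. GLT1 also rose at both scales, by 0.30 in tanks (SE 0.11, adjusted p = 0.0176) and by 0.54 in vials (SE 0.11, adjusted p = 0.000261), and the tank call was lost without day 2 tank replicate 2 (GLT1 adjusted p = 0.0881).

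Other members were called between day 2 and day 5 at a single scale. In tanks GDH1 was lower on day 5 than on day 2 at a log2 difference of -1.68 (SE 0.15, adjusted p = 4.71e-08), while GLN1 was higher by 1.40 (SE 0.15, adjusted p = 2.33e-07) and GDH2 by 0.78 (SE 0.08, adjusted p = 1.74e-07). In vials the values of these genes were -0.27 for GDH1, 0.09 for GLN1 and 0.10 for GDH2, and none was called. Without day 5 vial replicate 1 the vial value of GDH1 was -0.40 and called (adjusted p = 0.0429). MEP3 was higher on day 5 than on day 2 by 1.34 in vials (SE 0.09, adjusted p = 1.23e-09), and its tank value of -0.16 was not called. MEP2 was called at neither scale, at -0.04 in tanks and 0.36 in vials, though its day 5 vial arrays all lay above its day 2 vial arrays. With only the groups compared in the fit, the vial difference of MEP2 was called (adjusted p = 0.00648). Without day 2 tank replicate 3, MEP2 was called lower on day 5 in tanks, at -0.60 (adjusted p = 0.000636), and higher in vials (adjusted p = 0.0115). Without replicate 1 its tank value was 0.37, not called. In all, 6 of 8 members were called in tanks, 5 higher and 1 lower, against 73.3% of all genes (34.2% higher, 39.1% lower). In vials 4 of 8 were called, all higher, against 67.6% of all genes (26.5% higher, 41.1% lower). The day 5 and day 2 arrays did not overlap for 7 members in tanks and 6 in vials, against 76.6% and 76.9% of all genes.

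The change from day 2 to day 5 differed between the scales for 5 of the 8 genes by the interaction term of the fit, against 58.8% of all genes (32.9% higher, 25.9% lower). The tank change was below the vial change for MEP3 at -1.50 (SE 0.12, adjusted p = 8.22e-08), for GDH1 at -1.41 (SE 0.22, adjusted p = 5.45e-05) and for GDH3 at -0.85 (SE 0.20, adjusted p = 0.00169). It was above the vial change for GLN1 at 1.31 (SE 0.21, adjusted p = 6.81e-05) and for GDH2 at 0.69 (SE 0.11, adjusted p = 9.80e-05). For MEP1 the term was -0.58 and not called (adjusted p = 0.0999), but it was called without day 2 tank replicate 3 (MEP1 at -0.87, adjusted p = 0.00498). With all arrays, the MEP1 term was called under array weights (MEP1 at -0.67, adjusted p = 0.00999). The MEP1 term without day 2 tank replicate 1 was -0.35 (adjusted p = 0.276). For MEP2 the term was -0.40 (adjusted p = 0.435), without replicate 3 it was -0.97 (adjusted p = 0.000302), and without replicate 1 it was 0.0066.

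Between day 5 and day 10 fewer members moved. In tanks MEP3 was lower on day 10 by 0.54 on the log2 scale (log2 difference -0.54, SE 0.09, adjusted p = 0.000172) and GDH3 higher by 0.40 (SE 0.14, adjusted p = 0.0339), or 2 of 8 against 39% of all genes (15.3% higher, 23.6% lower). The GDH3 call was lost without any of 5 single arrays, with adjusted p up to 0.0949, day 10 tank replicate 2 among them (GDH3 at 0.34, adjusted p = 0.0803). MEP1 was not called in tanks at -0.51 (adjusted p = 0.0596), although its day 10 arrays lay below its day 5 arrays, and it was called without day 10 tank replicate 2 (MEP1 at -0.65, adjusted p = 0.0232) and without day 2 tank replicate 1 (adjusted p = 0.0351) or 3 (adjusted p = 0.0151). Leaving out other arrays gave MEP1 adjusted p up to 0.194. With all arrays, the MEP1 tank value was called under the repeated quantile normalization (-0.56, adjusted p = 0.0422). It was also called under array weights (-0.66, adjusted p = 0.00106). In vials MEP3 was lower on day 10 at -0.67 (SE 0.09, adjusted p = 3.42e-05) and GLN1 at -0.67 (SE 0.15, adjusted p = 0.00282), or 2 of 8 against 30.7% of all genes (11.3% higher, 19.5% lower). The arrays of these days did not overlap for 4 members in tanks and 6 in vials, against 41.5% and 46.2% of all genes. With array weights 7 of the 8 were called in vials, with GLT1, GDH1, GDH2 and MEP2 lower and GDH3 higher as well. The MEP2 vial value, -0.55 and not called with all arrays, was also called with only the groups compared in the fit (adjusted p = 0.00503). It was called without day 2 tank replicate 3 too (adjusted p = 0.0025).

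None of the 8 interaction terms for day 5 to day 10 was called by limma, 1 had an unadjusted p under 0.05 (GLN1, at 0.53), and 4.92% of all genes were called (2.62% higher, 2.29% lower). With array weights GLN1 was called in that comparison, at 0.61 (adjusted p = 0.00435), as it was without day 2 tank replicate 3 (adjusted p = 0.0376).

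Over the whole course, day 10 against day 2, MEP1 and GDH3 were higher at both scales. In tanks MEP1 was at 1.16 and GDH3 at 1.44, against 2.10 for MEP1 and 2.15 for GDH3 in vials. GDH1 was lower at both scales, at -1.70 in tanks and -0.64 in vials. MEP3 and GLN1 went opposite ways: MEP3 was at -0.69 in tanks and 0.67 in vials, and GLN1 at 1.26 in tanks and -0.58 in vials, all of them called. GDH2 was higher in tanks alone, at 0.64, with -0.10 in vials, not called. GLT1 was called in vials at 0.31 (adjusted p = 0.0151) and not in tanks at 0.18 (adjusted p = 0.133), and the vial call was lost without day 10 vial replicate 3 (GLT1 adjusted p = 0.0665) or day 2 vial replicate 2 (GLT1 adjusted p = 0.0555). The GLT1 tank value was called without day 10 tank replicate 1 (0.28, adjusted p = 0.0291) and with array weights (0.23, adjusted p = 0.0233), and was lowest without day 10 tank replicate 2, at 0.09. MEP2 was called at neither scale, at -0.18 in tanks and -0.19 in vials. It was called lower in tanks without day 2 tank replicate 3, at -0.74 (adjusted p = 7.76e-05), and without replicate 1 it was 0.23, not called. Of the 8 members 6 were called in tanks and 6 in vials, 4 higher and 2 lower at each scale, against 78.8% and 73.4% of all genes. Of all genes 35.5% were higher and 43.3% lower in tanks, and 27.1% higher and 46.3% lower in vials. The day 10 and day 2 arrays did not overlap for 6 members in tanks and 7 in vials, against 76.8% and 81.2% of all genes. The interaction term was called for 6 of 8, against 60.2% of all genes (33.7% higher, 26.5% lower), and was largest for GLN1 at 1.84 (SE 0.21, adjusted p = 2.01e-06), where 5.65% of all genes had a larger value in either direction.

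**Figure D4:**
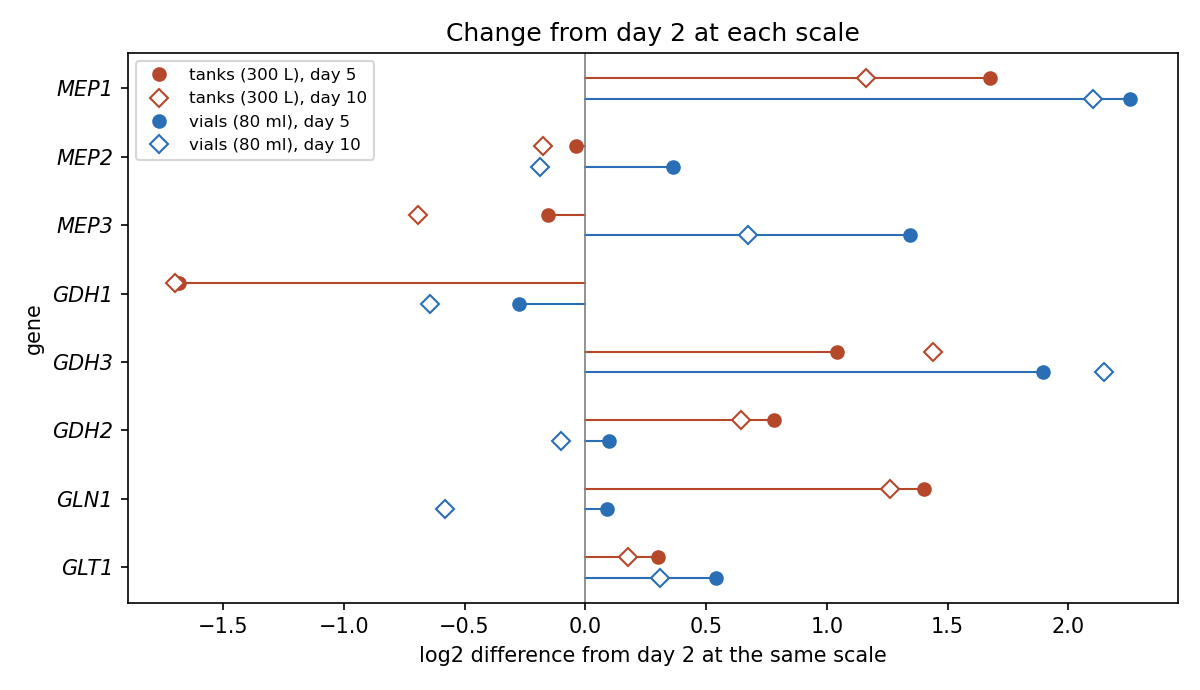
Log2 difference from day 2 at the same scale (x axis) for each gene (y axis), with filled circles for day 5, joined to 0 by a line, and open diamonds for day 10, tanks above vials for each gene. MEP1 and GDH3 lie right of 0 at both scales, GDH1 lies left of 0 with tanks farther out, and the day 10 values of MEP3 and GLN1 fall on opposite sides of 0.

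The 3 day 2 tank arrays differed among themselves in some of these genes. Differences of vessel, RNA sample and array cannot be told apart here. MEP2 had an SD of 1.01 there, the rank 4 largest of 5449 genes, and a 3.85-fold range over the arrays. The SD was 0.53 for MEP1, 0.41 for GLN1 and 0.29 for GDH1, against a median of 0.13 over all genes in that group, with 1.06%, 2.73% and 8.77% of genes more variable. In each of these 4 genes replicate 1 was highest and replicate 3 lowest. MEP3, GDH2 and GLT1 did not share this, with SDs of 0.08, 0.09 and 0.14, and GDH3 had its lowest value in replicate 1. Of all genes 43.6% had their lowest day 2 tank value in replicate 3.

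Some other genes of nitrogen use, picked after their values were seen, had the same order of arrays. Others in the related lists did not, such as GLN3 at 9.45, 9.28 and 9.45 and BSD2 at 9.67, 9.93 and 10.20. The share of list genes with this order was not counted. DIP5, a permease of glutamate and aspartate, had 9.41, 8.68 and 6.92 in the 3 day 2 tank arrays, with an SD of 1.28, rank 1 of all genes. The general amino acid permease gene GAP1 had 11.88, 11.01 and 9.94, and PUT1, of proline breakdown, had 9.71, 9.18 and 8.05. The GATA factor genes GAT1 (10.28, 9.79 and 9.29) and DAL80 (7.81, 7.53 and 6.73) followed the same order, while the glutamine permease gene GNP1 ran the other way at 8.22, 8.72 and 9.49. On day 5 the SD of MEP2 over the tank arrays was 0.03, and on day 10 it was 0.09. The day 2 values of MEP1, GDH1 and GLN1 without replicate 3 were 1.58, 1.34 and -0.76 for tanks minus vials, and each remained called.

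**Figure D5:**
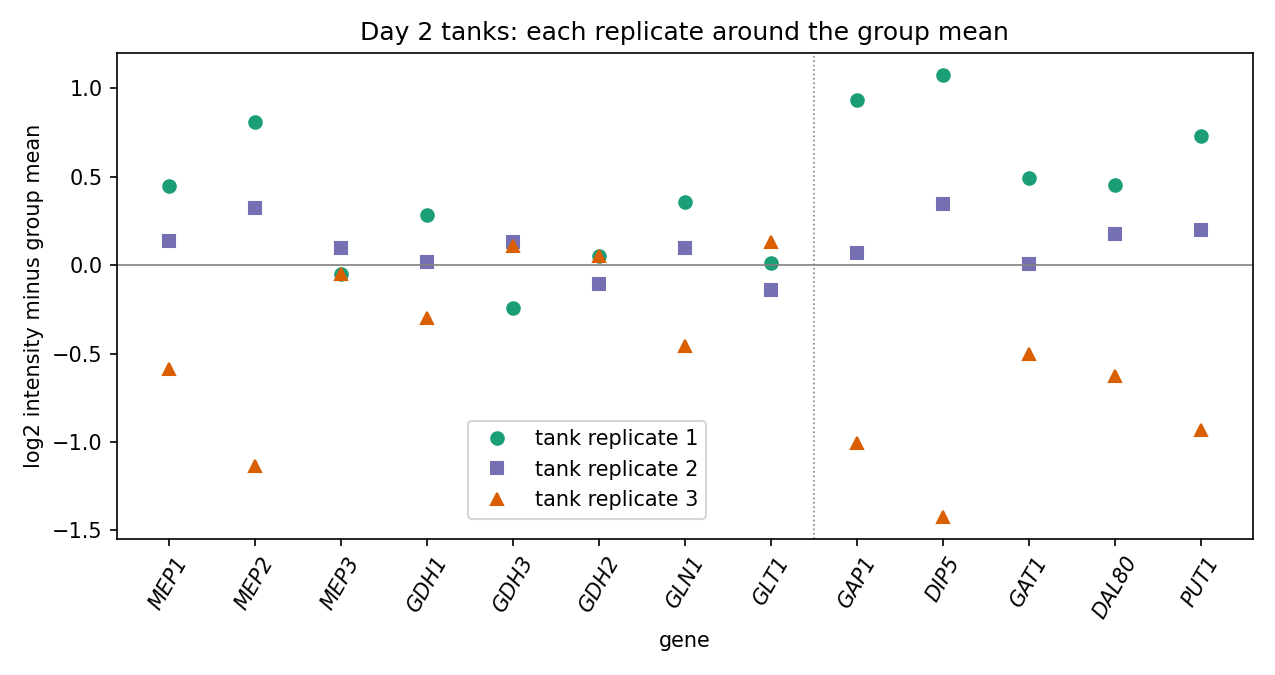
Log2 intensity minus the group mean (y axis) of each day 2 tank array for the 8 genes and, right of the dotted line, 5 other nitrogen genes chosen after their values were seen (x axis). Replicate 3 lies lowest for MEP1, MEP2, GDH1, GLN1 and all 5 genes on the right, and within 0.14 of the mean for MEP3, GDH3, GDH2 and GLT1.

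Of all genes 38.2%, 33.1% and 32.3% were higher in tanks and 39.1%, 28.8% and 26.4% lower on days 2, 5 and 10, and the counts of the related lists that follow stand against these shares. Among the regulators, the list of GATA factors and their control (GLN3, GAT1, DAL80, GZF3 and URE2) had 4 of 5 genes lower in day 2 tanks and none higher, with a median of -0.84, 2 higher and 2 lower on day 5, and 1 higher and 1 lower on day 10. DAL80, a repressor that is itself under GATA control, was lower in tanks on all days, at -4.24 (SE 0.27), -3.17 and -2.99. GAT1 was lower at -0.84 on day 2 and higher at 0.77 on day 5 and 1.00 on day 10. Of 7 genes that control Mep activity or the nitrogen signal to the kinase TORC1, 4 were lower on each day and 1, 2 and 1 higher on days 2, 5 and 10. PAR32 (also AMU1), which holds Mep1 and Mep3 inactive when nitrogen is plentiful, was lower in tanks at -1.91 (SE 0.39) on day 2 and -1.39 on day 5. NPR3, of the complex that restrains TORC1, was lower at -2.35, -1.13 and -1.26. NPR1, the kinase needed for Mep activity, was at -0.05 on day 2, not called, and higher at 0.46 on day 5.

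In the list of retrograde and leucine regulators with the HAP complex and GCN4, 1 of 10 genes was higher and 6 lower in day 2 tanks (38.2% and 39.1% of all genes), 4 were higher and none lower on day 5 (33.1% and 28.8%), and 4 were higher and 2 lower on day 10 (32.3% and 26.4%). LEU3, an activator of GDH1, was higher on each day, at 0.60, 0.38 and 0.34, and HAP4, also an activator of GDH1, was lower on day 2 at -1.96 (SE 0.09).

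Genes that feed or drain the pathway were mostly higher in tanks on day 2. Of 19 measured transaminases and other glutamate enzymes, 16 were higher and 3 lower on day 2 (median 0.63), 8 higher and 3 lower on day 5, and 10 higher and 4 lower on day 10. ALT1, the alanine transaminase, was at 1.75 on day 2, and ARO9, an aromatic transaminase, at 1.68, 1.83 and 1.83 on the 3 days, while PUT1 was lowest at -5.66 on day 2. Of 15 measured enzymes that use glutamine 11 were higher and 2 lower on day 2, 5 were higher on day 5 and none lower, and 9 were higher and 1 lower on day 10. They were led on day 2 by the CTP synthase gene URA8 at 1.22. Among 9 measured genes of 2-oxoglutarate supply 5, 6 and 4 were higher and 3, 2 and 1 lower on days 2, 5 and 10, with the isocitrate dehydrogenase gene IDH1 at 0.85, 0.88 and 0.69. These counts stand against 38.2%, 33.1% and 32.3% of all genes higher and 39.1%, 28.8% and 26.4% lower on the 3 days.

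The ATO genes, named for a proposed role in ammonium export, were higher in tanks in 3 of 3 cases on day 2, 1 of 3 on day 5 and 2 of 3 on day 10, and none was lower, against 38.2%, 33.1% and 32.3% of all genes higher. ATO3 was at 1.36, 0.90 and 0.73 on the 3 days. The 5 permeases of glutamate and glutamine were split, 2 higher and 2 lower on day 2 (38.2% and 39.1% of all genes) and 1 higher and 2 lower on days 5 and 10. On day 2 AGP1 was at 3.74 and GNP1 at 1.32, and DIP5 was at -2.73 and GAP1 at -2.95. On day 5 AGP1 was higher at 0.55 and DIP5 and GAP1 lower at -4.41 and -2.81. No list test was run, so whether any of these counts is particular to a list was not tested.

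Likeness to other genes was measured as Pearson's r of log2 values over the 18 arrays, among 4756 genes with a standard symbol, as a description. The arrays share 6 groups, so a high r mostly reflects alike group means. MEP2 was most like DIP5 (r = 0.853), GAP1 (r = 0.810) and the oligopeptide transporter gene OPT2 (r = 0.805), the lowest values of any member. For MEP3 they were RNR1, of ribonucleotide reductase (r = 0.984), GRH1 (r = 0.980) and the potassium channel gene TOK1 (r = 0.972). MEP1 was most like CTH1 (r = 0.972), PEX10 and MPT5, GDH1 like BCH1 (r = 0.966), PHS1 and CLN3, and GDH3 like ICS3 (r = 0.988), NIS1 and DED1. GDH2 was most like YPK2 (r = 0.973), BRR6 and APE4, GLN1 like PBS2 (r = 0.917), BCK2 and ATG13, and GLT1 like FMS1 (r = 0.880), ADE12 and RCR1.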

How the data were processed

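Total RNA (100 ng per sample) from each replicate was amplified, labelled and hybridised to an Affymetrix array. The deposited values are intensities per probe set on a linear scale, from 4.79 to 39396, made by the authors with Affymetrix Expression Console and RMA, per the submitters' processing notes (versions not given in the sources used here). Log2 was taken here. Of 10928 probe sets, 5498 matched 5449 S. cerevisiae genes of the RefSeq R64 table, and the probe set with the highest mean stood for a gene. Background was read from 1746 probe sets listed with a gene outside that table, taken to be of S. pombe.

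Tests used limma (3.58.1, under R 4.3.3) and 6 group means on all 18 arrays and 12 residual degrees of freedom, in 12 comparisons. Calls are at a Benjamini-Hochberg adjusted p under 0.05 over all genes of a comparison. Replicates are those the labels name as biological. The method was tested on simulated data, for tanks against vials on day 2 with 5449 genes, 50 of them changed at each size. In that simulation 58% of changes of 0.5 log2 units and 100% of changes of 1 were recovered. In the real day 2 comparison 77.3% of genes were called, and the Benjamini-Hochberg adjustment depends on the share of changed genes. The rates therefore describe the simulation only, and recovery in the real comparisons was not tested.

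The members and the 8 related lists (73 of 76 genes measured) were chosen with earlier results of these data known. Genes named are the 8 members, the 3 most like each, and up to 3 called genes per list and direction in a scale comparison, by size. Genes of the day 2 tank spread were picked after their values were seen. Alternatives were other scalings, filters, probe sets, priors, weights, samples, replicate blocks and leaving out each array. Promoter motifs and sequences were not analysed here.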

Additional observations from a re-analysis of the deposited data

Results flagged for a closer look

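For 11 of 24 interaction terms of the 8 genes, the change with time differed between tanks and vials by the fit's own test. That count is 5, 0 and 6 of 8 for the changes from day 2 to day 5, day 5 to day 10 and day 2 to day 10, against 58.8%, 4.92% and 60.2% of all genes, so it is near the background. From day 2 to day 5 the tank change minus the vial change was -1.50 for MEP3, -1.41 for GDH1, -0.85 for GDH3, 0.69 for GDH2 and 1.31 for GLN1. From day 2 to day 10 it was -0.94 for MEP1 (SE 0.29, adjusted p = 0.0111), -1.37 for MEP3, -1.05 for GDH1, -0.71 for GDH3, 0.75 for GDH2 and 1.84 for GLN1. The 2 sets of terms share the day 2 arrays. Groups of 3 arrays are too small for a test of single outlying arrays.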

How the results depend on the processing

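A repeated quantile normalization on the genes of S. cerevisiae alone shifted the all-gene median log2 difference by 0.13 for tanks against vials on day 2, by 0.11 and 0.14 for days 5 and 10 against day 2 in vials, and by -0.12 for the interaction from day 2 to day 10. Small values are to be read against these shifts. Leaving out arrays, the number of members called ran from 6 to 7, 4 to 5 and 3 to 4 between the scales on days 2, 5 and 10, from 1 to 3 in tanks and 2 to 3 in vials for day 10 against day 5, and from 0 to 1 for the interaction from day 5 to day 10, where the genes called ran from 176 to 706 (268 with all arrays). Array weights gave 7 members in vials for day 10 against day 5 and 1 for that interaction, with 3257, 3019 and 1690 genes for day 10 against day 5 in tanks, in vials and for the interaction, against 2123, 1674 and 268. With only the groups compared in the fit, 1156 genes were called in tanks and 146 for the interaction.

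Signs turned only for member values that were not called with all arrays. Without day 2 tank replicate 3, the MEP2 tank values for days 5 and 10 against day 2 (-0.60 and -0.74) and both interactions from day 2 (-0.97 and -0.56) were called. For day 10 against day 5 in tanks, GDH1 (-0.01) was 0.0057 with the repeated quantile normalization and 0.0033 with centred arrays, and ran from -0.0456 to 0.0178 leaving out arrays. GDH2 in vials, day 10 against day 2, was 0.014 with centred arrays. GLT1 between the scales on day 10 was -0.0248 and -0.0026 under these scalings, and from -0.0773 to 0.10 leaving out arrays. GDH3 ran from -0.19 to 0.0544 between the scales on day 10, and from -0.0175 to 0.23 for the interaction from day 5 to day 10, with -0.0546 under array weights. MEP2 leaving out arrays ran from -0.60 to 0.37 and -0.74 to 0.23 in tanks for days 5 and 10 against day 2, from -0.97 to 0.0066 for the interaction to day 5, and from -0.56 to 0.41 for that to day 10, with -0.0671 under centring and -0.13 under array weights. The cause was not tested.

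Same-numbered replicates had deviations from the group means that correlated at -0.04 on average between the scales and 0.01 within a scale (27 and 18 pairs). Within a scale, single pairs ran from -0.47 to 0.76, so these averages do not settle whether the numbers pair the samples. With the replicate block, as a fixed or a random term, all 96 member values kept direction and call, and 6, 4 and 3 members were called between the scales on days 2, 5 and 10. The number of arrays limits precision.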
